A study of Bos taurus with 8 samples.

Results

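The regions described here are the 819 bovine genes whose first window carried methylated DNA in every one of 8 dermal fibroblast cultures. They are 819 of 19867 first windows (4.12%). A first window is the 3Kb window of the genome at the start of a gene, taken by strand as the lowest window of a gene on the plus strand and the highest on the minus strand. Genes on chromosomes 1 to 29 with 2 or more windows were compared, and 4171 genes with a single window were not. Members were chosen by read counts: the first window had to hold at least 2 CPM in all 8 cultures, where CPM is the count of reads in a window scaled to the total over all windows of its library. Their levels are therefore given as a description with no test.

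MIRA-Seq measures methylation by pull-down: sonicated genomic DNA is bound by methyl-CpG binding proteins and what they retain is sequenced, so that windows rich in methylated CpG give many reads. The cultures came from shoulder skin of 4 Holstein heifers, a dairy breed, and 4 Angus heifers, a beef breed, all about 19 months old. There was 1 culture and 1 library per animal, all un-treated and at passage 5, and they are called here Holstein 1 to 4 and Angus 1 to 4. A culture grown in medium to passage 5 stands for the skin cells that divided there, and not for the whole skin. The windows of a library held 18691111 to 35525554 reads, so that 2 CPM stood for 37.4 to 71.1 reads.

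Most mammalian genes start in a CpG-rich stretch that stays free of methylation, whether or not the gene is used in that cell. Methylation at a gene start is known chiefly from germline genes in body cells, from 1 parental copy of imprinted genes and from genes of other tissues whose start is poor in CpG. Inside genes methylation is common, and there it does not mark a silent gene. A 3Kb window that holds a gene start also holds neighbouring sequence, and pull-down cannot place methylated CpG within it.

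The members had a median of 4.09 CPM over the 8 cultures, against 0.372 CPM in the other 19048 first windows. Few members were far above the threshold, since the lowest culture of 638 members lay between 2 and 4 CPM, that of 154 between 4 and 10 CPM, and that of 27 at 10 CPM or more. Together the members took 0.415 to 0.741% of the reads of a library. The median over members was 3.34, 4.37, 4.28 and 4.84 CPM in Holstein 1 to 4 and 3.35, 4.31, 3.06 and 5.24 CPM in Angus 1 to 4. Both breeds thus had low and high cultures, and their ranges overlapped.

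The cultures with the lowest levels set which genes passed. The lowest value of a member was in Angus 3, Angus 1 or Holstein 1 in 782 of 819. Angus 3 and Holstein 1 were also the libraries with the largest share of reads on unplaced scaffolds (26.1 and 19.98%, against 10.6 to 16.1% in the others). Those reads count in the CPM denominator. With library sizes over chromosomes 1 to 29 alone, 1250 first windows were at 2 CPM or more in all 8 cultures, and all 819 members were among them. Without Angus 3, 1009 first windows reached 2 CPM in the other cultures, and all 819 members were among them. At the threshold itself the order was within counting error. NOTCH1, the receptor, UPK3A, a urothelial membrane protein, and MATN1, a cartilage matrix protein, were just inside, each with 60 reads or 2.01 CPM in Angus 3 (exact Poisson 95% interval 1.54 to 2.59 CPM, counting error only). KCNT1, a potassium channel, was just outside with 46 reads or 1.99 CPM in Holstein 2 (1.46 to 2.66 CPM), and LOC100847749 and TSC2, a brake on the mTOR pathway, were just outside with 57 reads or 1.99 CPM in Angus 1.

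The members with the most reads were led by TSN, which encodes translin, a nucleic acid binding protein. Its first window, chr2:73825934-73828933 on UMD v3.1, held 634, 818, 584 and 681 CPM in Holstein 1 to 4 and 521, 563, 366 and 993 CPM in Angus 1 to 4. RIMKLA, an enzyme that joins glutamate to N-acetylaspartate, held 254, 132, 193 and 207 CPM in Holstein 1 to 4 and 133, 203, 87.1 and 267 CPM in Angus 1 to 4. YBX1, a cold-shock protein that binds RNA, held 174, 89.1, 117 and 118 CPM and 109, 138, 64.5 and 176 CPM in the same order. In all 3 genes Angus 3 was the lowest and Angus 4 the highest culture, and the breeds overlapped.

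These reads were narrow. The window after the first held a median of 0.192 CPM in TSN, 0.1399 CPM in RIMKLA and 0.144 CPM in YBX1, and the highest depth at a base was 13.9, 16.7 and 15.2 times the mean depth of the window. Over all members this ratio had a median of 4.78, and over other first windows 9.55. In 29 members it was 10 or more, among them C20H5orf34, MUC12, a membrane mucin, LMF2, a lipase maturation factor, and RPS6, a protein of the small ribosomal subunit. Of the 27 members with at least 10 CPM in every culture, 10 had such stacked reads. Without all windows of this shape 790 members were left. How duplicate reads and reads with several matches were handled is not described, so in genes with copies elsewhere in the genome, such as RPS6 and YBX1, the reads cannot be assigned with certainty.

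**Figure D1:**
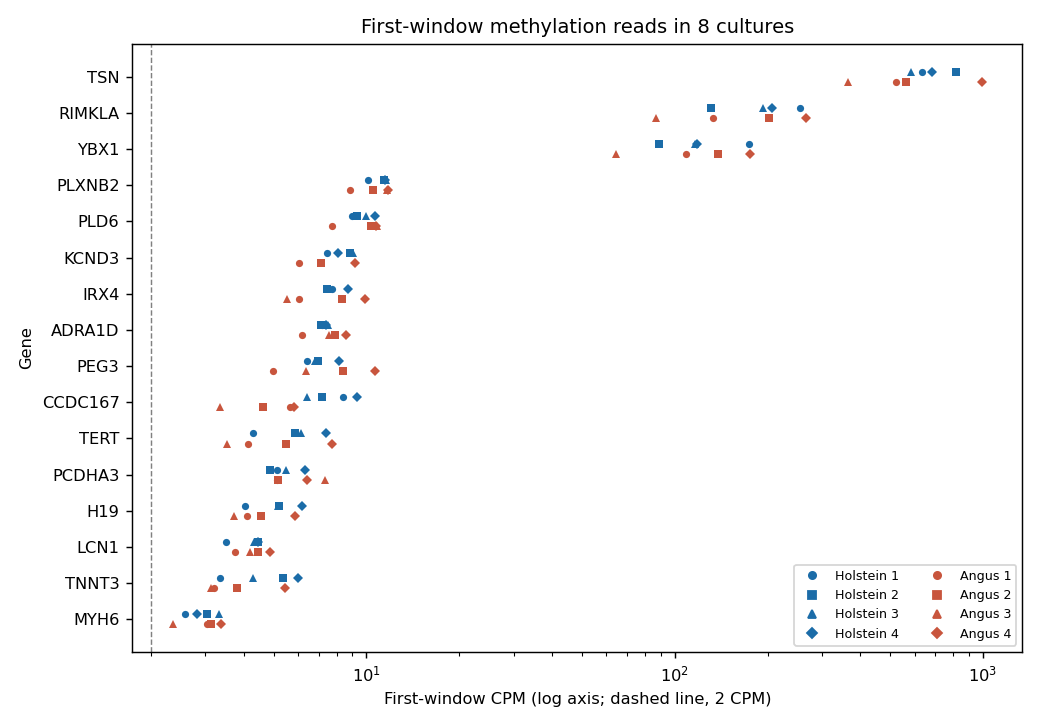
First-window CPM (log axis) of 16 members described in the text in each of the 8 cultures, with blue for Holstein, red for Angus, marker shapes for the animal number and a dashed line at the 2 CPM threshold. TSN, RIMKLA and YBX1 stand at 64.5 CPM and above, the other genes lie between 2.35 and 11.7 CPM, and the breeds overlap in every gene shown but CCDC167.

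Not all of the highest members were narrow. ARHGEF11 had a median of 226 CPM, with 119 CPM in the window upstream and 182 CPM in the next window. ERBB4, a receptor for neuregulins that spans 325 windows, had 75.1 CPM, with 106 CPM upstream and 147 CPM in the next window. C28H10orf11 likewise had 32.7 CPM between windows of 35.4 and 28.2 CPM. In these genes the first window was part of a longer stretch with many reads. KIAA0195, by contrast, had 27.4 CPM beside windows of 0.563 and 0.359 CPM.

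Over the members the median CPM was highest at the first window, where the rule sets the level. Beyond it the median stayed above that of other genes. The next window in the direction of transcription had a median of 2.58 CPM in members and 0.414 CPM in other genes. It reached 2 CPM in all 8 cultures in 43.5% of members and 4.74% of other genes. The window just upstream had 1.39 CPM in members and 0.363 CPM in others, and it reached 2 CPM in all cultures in 24.2% and 2.25%. At 15 kb upstream the median was still 1.35 CPM in members and 0.386 CPM in others. By median CPM, both neighbours were at 2 CPM or more in 232 members, only the next window in 259, only the upstream window in 85, and neither in 243.

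**Figure D2:**
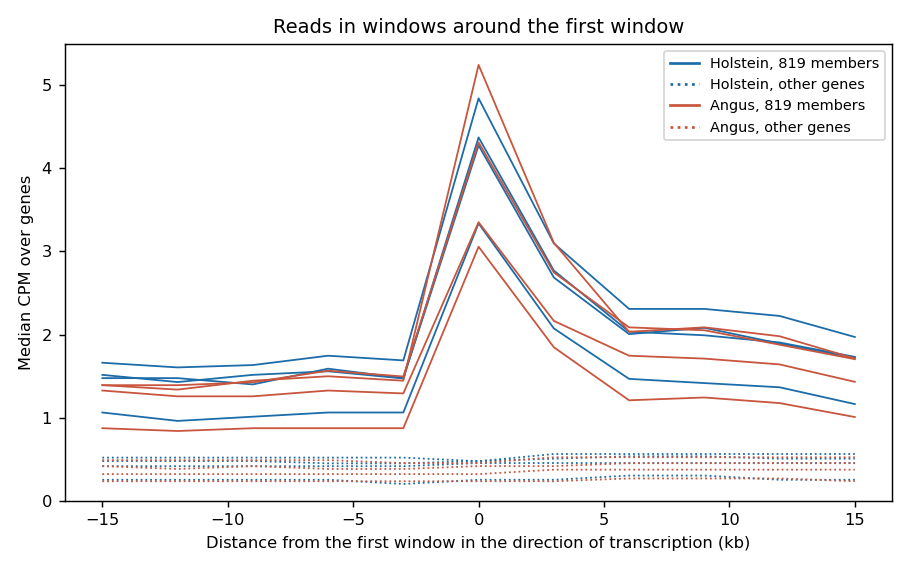
Median CPM over genes in windows from 15 kb upstream to 15 kb downstream of the first window, 1 line per culture, solid for the 819 members and dotted for other genes, blue for Holstein and red for Angus. Members peak at the first window, where their selection sets the level, and lie above the other genes at every distance shown in all 8 cultures.

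Members were set against the other windows of the same gene. The first window held a median of 1.54 times the mean CPM of the rest, was below that mean in 200 members (24.4%) and was at least 4 times the mean in 144 (17.6%). Among genes with 5 or more windows the ratio was largest in RIMKLA (294), C20H5orf34 (191), YBX1 (153), C28H10orf11 (66.5) and LOC100848941 (54.8). It was smallest in LOC100295316 (0.298), ABCA2, a lipid transporter (0.331), WDR5, a subunit of histone methyltransferase complexes (0.385), BRD9, a subunit of a chromatin remodeler (0.413), and NOTCH1 (0.450). In these genes the gene body held more reads than the start. Of the 144 members with a focal first window, 17 lay within 5 Mb of the chromosome's last base, against 299 of all 819.

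Position on the chromosome was not used by the rule, and members and other first windows were placed differently. Of the members, 36.5% lay in the last 5 Mb of their chromosome, against 7.18% of the other first windows. In the last 1 Mb, 132 of 462 first windows were members (28.6%), between 1 and 2 Mb 77 of 354 (21.8%), between 2 and 5 Mb 10.6%, and beyond 40 Mb 2.48%. At the other end, which on bovine autosomes generally lies at the centromere, 8.79% of members and 5.61% of the others were in the first 5 Mb. The median CPM of all first windows followed the same course, from 1.63 CPM in the last 1 Mb to 0.326 CPM beyond 40 Mb. CpG density was not measured here, and its part in this gradient was not tested.

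**Figure D3:**
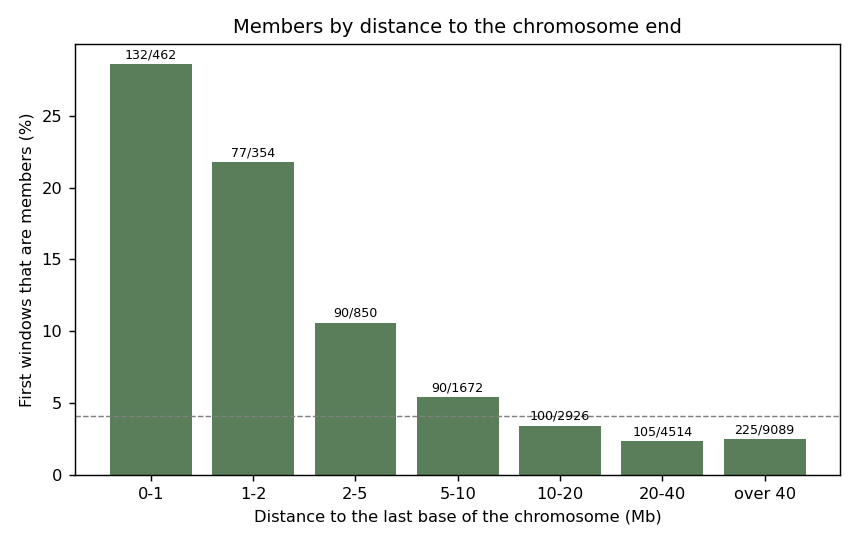
Percent of first windows that are members (bars from 0) by distance to the last base of the chromosome in Mb, with members and first windows counted above each bar and a dashed line at the 4.12% of all first windows. The share falls from 28.6% in the last 1 Mb to 2.48% beyond 40 Mb.

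Chromosomes differed accordingly. The share of first windows that were members was 7.99% on chromosome 17, 7.36% on 25, 6.33% on 29 and 6.29% on 11, and it was 1.76% on chromosome 9 and 1.81% on 10. Of the 55 members on chromosome 11, 46 lay in the last 5 Mb, as did 35 of the 49 on chromosome 17. Chromosome 14 was an exception, with 29 members of which none was among the 24 first windows of its last 5 Mb. There, 11 of 41 first windows between 2 and 3 Mb from the start were members. Chromosomes 7 and 10 also had no member in their last 5 Mb, among 12 and 25 first windows. Chromosome 18 had the most first windows in its last 5 Mb, 209, and only 11 of them were members. On chromosome 15 they were 7 of 123, so the rise toward the end was not shared by all chromosomes.

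The 1 Mb stretch with the most members was chromosome 17 from 74 to 75 Mb, where 20 of 43 first windows were members (46.5%). The share was larger in some stretches with fewer first windows, such as chromosome 11 from 105 to 106 Mb (10 of 17). It carries genes of the region deleted in human DiGeorge syndrome. DGCR2 had a median of 9.46 CPM, DGCR8, a subunit of the microRNA processor, 8.58 CPM, and TXNRD2, a mitochondrial thioredoxin reductase, 6.26 CPM. SERPIND1, a thrombin inhibitor made in liver, had 10.5 CPM beside a next window of 15.1 CPM. In DGCR8 the windows on either side held 5.99 and 8.21 CPM, so the first window did not stand out from its surroundings there.

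On chromosome 11 from 106 to 107 Mb, 16 of 28 first windows were members, and they included a group of lipocalins, small secreted carriers of hydrophobic molecules. LCN1, the tear lipocalin, held 3.49, 4.46, 4.31 and 4.45 CPM in Holstein 1 to 4 and 3.73, 4.45, 4.198 and 4.87 CPM in Angus 1 to 4. Counted after the members had been seen, 7 of 9 lipocalin first windows were members, with medians between 3.099 and 4.45 CPM, and 88.9% of the 9 lay in the last 5 Mb of a chromosome. On chromosome 12 from 90 to 91 Mb, 12 of 24 were members, among them F7, a coagulation factor made in liver, and ATP4B, a subunit of the gastric proton pump.

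Neighbouring genes also formed unbroken runs. The longest was THAP4, ATG4B, DTYMK, ING5, D2HGDH and GAL3ST2, 6 consecutive genes within 0.108 Mb of chromosome 3, with medians from 3.40 CPM in D2HGDH to 10.6 CPM in ATG4B, a protease of the autophagy pathway. On chromosome 20, SLC6A3, CLPTM1L, TERT, SLC6A18 and SLC6A19 followed each other within 0.138 Mb. TERT, the catalytic subunit of telomerase, is silent in most body cells. Its first window, chr20:71261918-71264917, held 4.30, 5.89, 6.13 and 7.40 CPM in Holstein 1 to 4 and 4.12, 5.49, 3.53 and 7.70 CPM in Angus 1 to 4. The next window of TERT had a higher median, 6.74 CPM, than the first, 5.69 CPM. On chromosome 12, TMCO3, TFDP1, ATP4B, GRK1 and LOC618499 formed a run of 5.

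The members were short genes. They spanned a median of 4 windows, against 7 in the others, and 32.2% of them had 2 windows, against 19.02%. Genes of 50 or more windows made up 2.56% of the members and 7.15% of the others. A coding exon was listed for the first window in 87.5% of members and 70.6% of the others. On the plus strand, where the exon of lowest coordinate is listed, 36 of 386 members with a coding exon (9.33%) began with an exon numbered above 1, against 3.39% of the others. In these genes the first window is not at the start of the coding sequence. A gene on the same strand occupied the window upstream of 16.5% of members and 9.93% of the others, and a gene on the opposite strand that of 13.8% and 14.1%.

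Of the members 146 had a symbol that starts with LOC, a placeholder for genes without an established name. These were 17.8% of the members and 24.8% of the others. By gene ID 71 of them were found in the RefSeq table of ARS-UCD2.0, and 33 have another symbol there. They include LOC100337066, now WNT7B, a secreted signalling protein (3.26 CPM), LOC517426, now SCN4A, the sodium channel of skeletal muscle (4.79 CPM), LOC539690, now CD93, a receptor of endothelial and myeloid cells (5.94 CPM), and LOC100847395, now MUC5AC, a mucin of the airway and stomach (9.32 CPM).

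Which genes these are was described by 28 gene lists, each as the count of members among its first windows, to be read against the 4.12% of all first windows. Genes of the germline, which serve meiosis, sperm or egg, had 6 members of 75 (8%), and the median of the list was 0.992 CPM, against 0.392 CPM over all first windows. PLD6, a mitochondrial enzyme needed for piRNAs in the testis, was the highest of them. It held 8.95, 9.31, 9.95 and 10.6 CPM in Holstein 1 to 4 and 7.71, 10.3, 10.8 and 10.8 CPM in Angus 1 to 4. Its 4 Holstein values lay within the range of the Angus values.

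The other germline members were FKBP6 (3.96 CPM) and TDRD9 (4.51 CPM), which act in the piRNA pathway, HSF2BP, a meiotic recombination factor (3.90 CPM), MOV10L1, a piRNA helicase (3.58 CPM), and ACR, a protease of the sperm acrosome (3.18 CPM). A further 19 genes of the list reached 1 but not 2 CPM in all cultures. They include DDX4, PIWIL2 and TDRD1, with medians of 2.18, 1.89 and 2.23 CPM. First windows of MOV10L1 and ACR lay in the last 1 Mb of chromosome 5, that of PLD6 28.5 Mb from the end of chromosome 19.

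Imprinted genes, of which only 1 parental copy is active, had 4 members of 44 (9.09%) and a list median of 0.596 CPM. PEG3, a zinc finger gene active on the paternal copy, held 6.42, 6.97, 6.81 and 8.16 CPM in Holstein 1 to 4 and 4.99, 8.38, 6.38 and 10.6 CPM in Angus 1 to 4. H19, a non-coding RNA of the maternal copy, held 4.05, 5.19, 5.18 and 6.16 CPM and 4.08, 4.55, 3.73 and 5.89 CPM. Angus 4 was the highest culture in PEG3 and Holstein 4 in H19, and the breeds overlapped in both. The first window of PEG3 held only 1.16 times the mean of its other windows. The next window of PEG3 had a higher median, 8.18 CPM, than the first, 6.89 CPM. OSBPL5 (4.74 CPM) and SLC22A18 (4.15 CPM) lie in the same imprinted part of chromosome 29 as H19. Of the list, 29.5% lay in the last 5 Mb of a chromosome, against 8.39% of all first windows. At the other end of the list, IGF2R had a median of 0.141 CPM and SNRPN of 0.0727 CPM, near or below what 3 reads are worth (0.0844 to 0.161 CPM). Reads from the 2 parental copies were not told apart.

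Clustered protocadherins, cell-surface proteins that give neurons their identity, had the highest share of the 28 lists, 6 of 17 (35.3%). None of the 17 lay in the last 5 Mb of a chromosome. PCDHA3, at chr7:53618546-53621545, held 5.11, 4.85, 5.49 and 6.31 CPM in Holstein 1 to 4 and 5.13, 5.18, 7.35 and 6.42 CPM in Angus 1 to 4, or 49.6 times the mean of its other windows. PCDHA13 had a median of 6.61 CPM and a ratio of 21.95, and PCDHB14 one of 2.84 CPM and a ratio of 17.0. PCDHA6, PCDHGA6 and PCDHGB4 had medians of 3.20, 3.30 and 3.46 CPM. Their neighbours in the same clusters ranged down to 0.0820 CPM in PCDHB4, so the clusters were not raised as a whole. These genes are similar in sequence, and reads that match several of them cannot be assigned with certainty.

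Genes of other tissues were also among the members. Of the muscle list 7 of 32 were members (21.9%): TNNT3, MYBPC3, MYH6, MYH7, MYL3, TNNI2 and CACNA1S, which encode parts of the contractile filaments and the calcium channel that triggers contraction. MYH6, a heart myosin, held 2.58, 3.03, 3.33 and 2.81 CPM in Holstein 1 to 4 and 3.04, 3.13, 2.35 and 3.37 CPM in Angus 1 to 4. TNNT3, a troponin of fast muscle, held 3.34, 5.37, 4.28 and 5.996 CPM and 3.21, 3.79, 3.12 and 5.46 CPM. The first window held 0.898 to 1.23 times the mean of the other windows in 6 of these genes and 0.403 times in TNNI2, so none of the muscle members had a focal first window. The median of the muscle list was 0.736 CPM, and 15.6% of the list lay in the last 5 Mb of a chromosome.

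The endothelial list had 3 members of 19, namely ROBO4 (4.18 CPM), CLDN5, a tight junction protein (3.02 CPM), and CDH5, the cadherin of vessels (3.04 CPM). The liver list had 3 of 23, HNF4A, a transcription factor of hepatocytes (2.93 CPM), F7 (3.20 CPM) and APOH (3.03 CPM). The epithelial list had 3 of 26, OVOL1 (4.56 CPM), PKP3, a desmosome protein (3.60 CPM), and ELF3 (4.23 CPM). The blood cell list had 3 of 33, with LAT (4.02 CPM) and ZAP70 (3.01 CPM) of T cell receptor signalling and SPI1, the myeloid factor PU.1 (3.87 CPM). The neuron list had 1 of 24, SLC6A3, the dopamine transporter (3.70 CPM), and the pluripotency list 1 of 12, ESRRB (2.87 CPM). List medians were 0.586 CPM for the endothelial, 0.408 CPM for the liver, 0.838 CPM for the epithelial and 1.02 CPM for the blood cell list. Those of the neuron and pluripotency lists were 0.326 and 0.283 CPM, against 0.392 CPM over all first windows.

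Among genes that fibroblasts themselves use, 1 of 23 was a member (4.35%), near the share of all first windows. The fibroblast list had a median of 0.264 CPM, the neuron list one of 0.326 CPM, and FN1, COL1A2, COL3A1 and DCN, which encode matrix proteins, had 0.0954, 0.0883, 0.0523 and 0.0174 CPM. Such low values were not particular to fibroblast genes, since ALB and CPS1 of the liver list had 0.0675 and 0.0315 CPM. The member was COL5A1, a fibrillar collagen (4.24 CPM). LOC100848491, another member just downstream of it on chromosome 11 (3.57 CPM), carries the gene ID of COL5A1 in the RefSeq table. The deposited annotation thus splits the gene, and which window holds its start is uncertain. Ribosomal protein genes had 1 member of 64, RPS6, whose reads were stacked. HOX genes had none of 21, with a list median of 0.660 CPM. Genes whose symbol starts with CD and a number had none of 69. CD antigens under other symbols, such as CD93 (the member LOC539690), were not in that list.

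Receptors and channels made up a larger group. Ion channel and neurotransmitter receptor genes had 20 members of 240 (8.33%). KCND3, a potassium channel subunit of heart and brain, had the highest lowest-of-8 CPM among them, with 7.43, 8.83, 9.04 and 8.08 CPM in Holstein 1 to 4 and 6.04, 7.13, 7.12 and 9.20 CPM in Angus 1 to 4. KCNS1 had a median of 7.93 CPM, CACNG5 of 6.71 CPM and DRD5, a dopamine receptor, of 5.22 CPM. G protein-coupled receptors had 9 of 100 (9%). Of these ADRA1D, an adrenaline receptor, held 7.18, 7.10, 7.49 and 7.40 CPM in Holstein 1 to 4 and 6.18, 7.93, 7.56 and 8.61 CPM in Angus 1 to 4, with 0.252 CPM upstream and 0.319 CPM in the next window. GPR153 and LPAR2 had 7.99 and 6.01 CPM. The Holstein cultures lay inside the range of the Angus cultures in ADRA1D.

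Solute carriers had 20 of 331 (6.04%), among them SLC25A22 (5.999 CPM), a mitochondrial glutamate carrier. Collagens had 3 of 39, COL18A1, COL4A2 and COL5A1, and ADAM and ADAMTS proteases 3 of 44, ADAM1B, ADAM8 and ADAMTS13. Zinc finger genes were near the background with 16 of 306 (5.23%), among them ZNF70 (13.4 CPM), ZNF536 (7.18 CPM), ZNF710 (7.92 CPM) and ZNF358 (6.83 CPM).

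Homeobox and developmental factor genes outside the HOX clusters had 6 of 147 (4.08%). The pattern of their symbols also took in TBXA2R, a thromboxane receptor, and FOXRED2, an oxidoreductase, which are not such factors. IRX4, FOXJ1 and FOXK1 are such factors. IRX4, a factor of the heart ventricle, held 7.74, 7.44, 7.53 and 8.73 CPM in Holstein 1 to 4 and 6.04, 8.31, 5.51 and 9.90 CPM in Angus 1 to 4. Interleukin and chemokine genes and their receptors (5 of 146, with CCR6 and CXCR6 highest) were also near the background. So were tripartite motif genes (2 of 56, TRIM56 and TRIM42) and the keratin list (2 of 64, KRT17 and KRT85). The keratin list also took in genes that are not keratins, such as the keratin-associated protein gene KRTAP16-1. The olfactory receptor list had 1 of 94, OR5A1. The pattern of its symbols also took in olfactomedin genes such as OLFM1, which are not such receptors. Neither of 2 microRNA genes was a member.

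**Figure D4:**
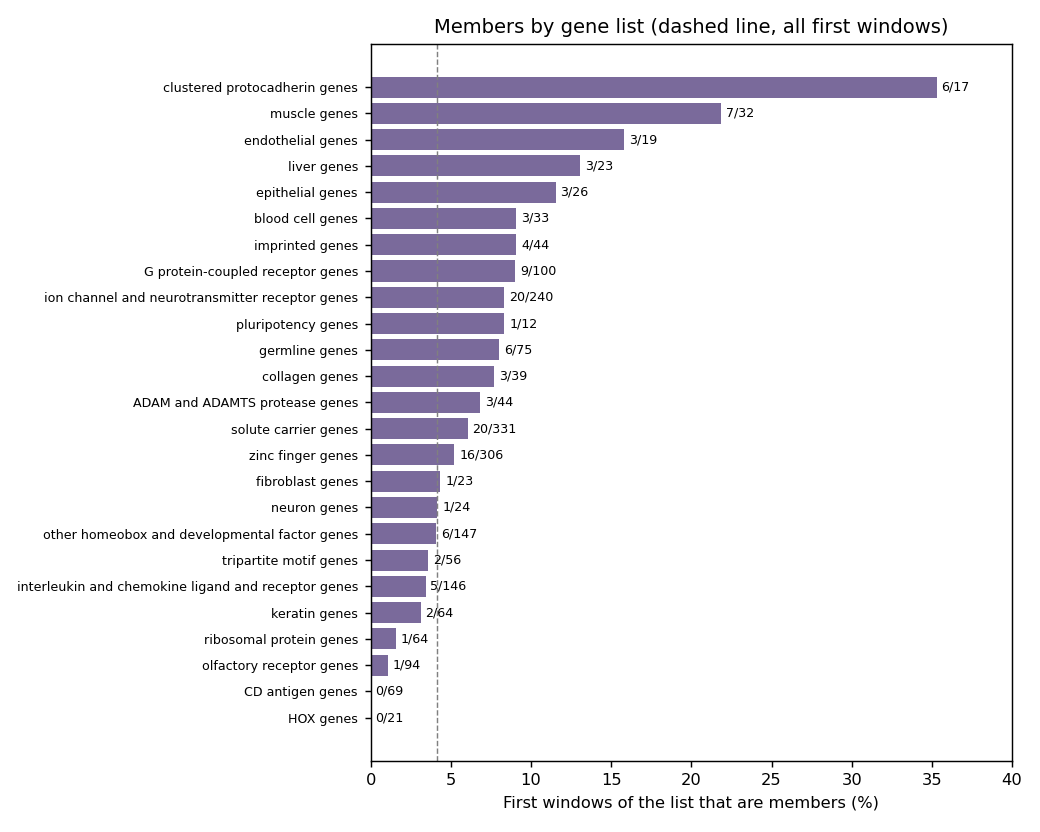
Percent of first windows that are members (bars from 0) in 25 of the 28 gene lists, with members and first windows of each list beside its bar and a dashed line at the 4.12% of all first windows; 3 lists are not drawn. Clustered protocadherins (6 of 17) and muscle genes (7 of 32) stand highest. HOX genes and the CD antigen list, which holds only symbols that start with CD and a number, are at 0.

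Gene families that caught the eye among the members were counted after the members had been seen. Of the plexins, receptors for semaphorins that steer axons and cells, 5 of 7 first windows were members. PLXNB2 held 10.1, 11.4, 11.5 and 11.5 CPM in Holstein 1 to 4 and 8.87, 10.5, 11.7 and 11.7 CPM in Angus 1 to 4. PLXNA2, PLXNA1, PLXNB1 and PLXNA4 had medians of 9.62, 8.17, 6.58 and 4.23 CPM, PLXND1 had 1.40 CPM and PLXNC1 0.483 CPM. Of the 7, 57.1% lay in the last 5 Mb of a chromosome. Members were also 4 of 9 KBTBD genes, 4 of 10 INPP genes, which encode inositol phosphatases, 4 of 14 inward rectifier potassium channels, 2 of 12 kallikreins, 2 of 3 CELSR genes and 2 of 3 gamma-glutamyltransferases.

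The breeds were compared to ask whether dairy and beef cultures differ in these windows. None of the 819 members was a differentially methylated region by edgeR's likelihood-ratio test, the test of the study, at FDR < 0.1 and a fold change of at least 2. Over all 115360 windows tested, 0.231% were called (267 windows), and over those on chromosomes 1 to 29, where all members lie, 0.0923% (102 of 110561). Among windows on these chromosomes with at least 2 CPM in all 8 cultures the share was 0.09% (19 of 21115). No member was called by edgeR's quasi-likelihood test or by DESeq2 either, each of which called 0.122% of all windows. On chromosomes 1 to 29 the quasi-likelihood test called 0.0624% of the windows tested. Without adjustment 25 members (3.05%) were under 0.05 by edgeR's likelihood-ratio test, against 4.94% of all windows tested, and 27 by DESeq2.

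The log2 fold change of Holstein over Angus, after TMM scaling, had a median of -0.05 over the members. It ranged from -0.71 to 0.80, so every member differed by less than 2-fold, and it was above 0 in 34.6% of members. Windows under 2 CPM in 1 breed could not be members, so the rule itself limits how far the breeds can differ here. Windows on chromosomes 1 to 29 with at least 2 CPM in all 8 cultures had a like median of -0.04, with 37.7% above 0. Over all windows tested the median was -0.0021, with 49.6% above 0. With library totals in place of TMM the medians were 0.08 over the members and 0.14 over all windows, so the sign of the members' median turned with the scaling. The median standard error was 0.17, which gives a typical member a 95% interval of 0.33 on either side. The lowest FDR was 0.21, in LOC516742, a histone H4 gene by its gene ID. Its first window had a log2 fold change of -0.60, and DESeq2 gave this gene an FDR of 0.0972 at less than 2-fold. The reads of LOC516742 were stacked, with a highest depth 10.3 times the mean, and the windows upstream and next held 0.514 and 0.141 CPM.

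The breeds did not overlap in 6 members, or 0.733%, against 1.31% of all windows tested and 1.18% of those on chromosomes 1 to 29. Overlap was judged on CPM by library totals, without TMM. On that scale the median log2 fold change over all windows tested was 0.14, toward Holstein. Holstein cultures were higher in 5 of the 6 members (1.11% of all windows have this order). CCDC167, at chr23:11372493-11375492, held 8.40, 7.18, 6.39 and 9.29 CPM in Holstein 1 to 4 and 5.65, 4.62, 3.36 and 5.83 CPM in Angus 1 to 4, a log2 fold change of 0.57 ± 0.19 (SE) with an edgeR FDR of 0.303. Its reads were stacked, with a highest depth 26.6 times the mean, and the window upstream held 102 CPM. LOC100848941, LOC100848065, FOXK1 and KCNN4 had log2 fold changes of 0.35, 0.29, 0.28 and 0.24.

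Angus cultures were higher in 1 (0.208% of all windows tested and 0.076% of those on chromosomes 1 to 29). It was T, which encodes brachyury, the transcription factor of the notochord. Its first window held 28.2, 16.8, 27.3 and 25.4 CPM in Holstein 1 to 4 and 36.5, 39.9, 32.4 and 38.8 CPM in Angus 1 to 4. T had a log2 fold change of -0.71 ± 0.34 (SE) and an edgeR FDR of 0.965. The window upstream of T held 75.7 CPM. In the protocadherins the 6 log2 fold changes were all below 0, at -0.55 in PCDHA13, -0.34 in PCDHA3, -0.46 in PCDHB14, -0.09 in PCDHA6, -0.33 in PCDHGA6 and -0.61 in PCDHGB4. None had an FDR under 0.48, the breeds overlapped in each, and these neighbouring genes are not independent of each other. Over all members, 34.6% of the log2 fold changes were above 0.

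**Figure D5:**
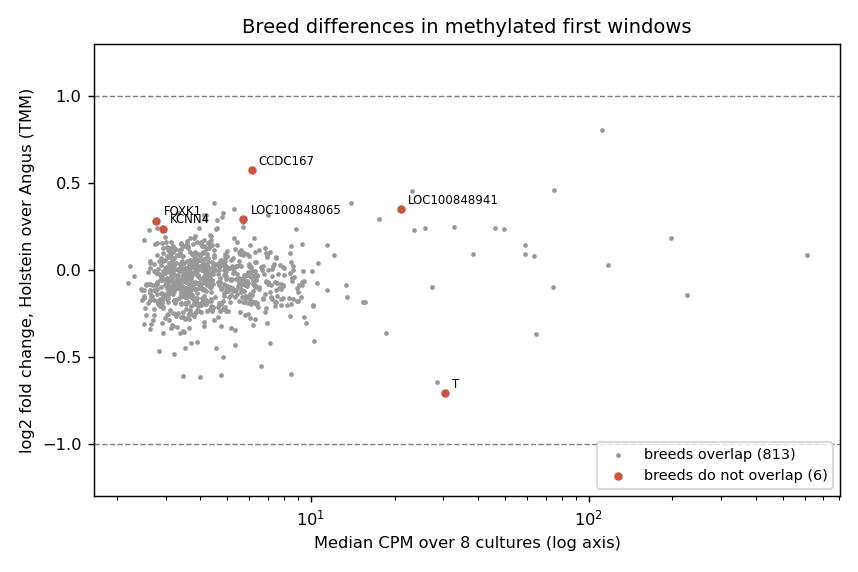
Log2 fold change of Holstein over Angus after TMM scaling against the median CPM over the 8 cultures (log axis) for the 819 members, with red points and names for the 6 members in which the breeds do not overlap and dashed lines at 2-fold. All members lie between -0.71 and 0.80.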

How the data were processed

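MIRA-Seq libraries of 8 cultures were analysed, with breed and animal number from the sample titles and passage from the labels. The authors filtered the reads (CASAVA 1.7 is named in the submitters' processing notes), aligned them to UMD v3.1 with NextGENe 2.3.4 and deposited raw read counts per consecutive 3Kb window, not normalized, with the gene and coding exon of each window. The deposited files also give the highest and mean coverage of a window, an unscaled signal capped at 65535, which was used only for the shape of the reads. The handling of duplicate reads and of multiple matches is not described in the sources used here. Counts depend on CpG density, pull-down efficiency and copy number, and no input library was used here.

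CPM scaled each count to the total over all 902984 windows of its library. At this depth 3 reads are worth 0.0844 to 0.161 CPM, and intervals cover counting error only. Of the member windows 6 were longer than 3000 bp. Breeds were compared in edgeR 4.0.16 (R 4.3.3) with TMM normalization and the likelihood-ratio test over the 115360 windows that reached 1 CPM in 4 or more cultures, with Benjamini-Hochberg adjustment over all of them. The quasi-likelihood test and DESeq2 1.42.0 were alternatives. The fit was tested on simulated data. Within a breed no 2 libraries agreed within sampling noise; pairs across breeds were not compared. Each culture came from 1 animal, and p-values measure the spread between these cultures. Tables were made in Python 3.11.15 (pandas 2.3.3, numpy 2.4.6, scipy 1.17.1).

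The members and the gene lists were chosen with earlier results of these data known, and the families counted last in the lists (plexins, lipocalins and the like) after the members had been seen. The text names the 10 members without a LOC symbol with the highest lowest-of-8 CPM, up to 4 members of each list by the same measure (all members of the germline, imprinted, pluripotency and cell type lists), the 3 genes on either side of the threshold, the 5 largest and 5 smallest ratios among genes of 5 or more windows, members in which the breeds do not overlap, and the longest runs. LOC516742, the LOC genes with other symbols, genes of the dense stretches and further named members were chosen after their values were seen. Alternatives were other library sizes, thresholds and filters, a block for the animal number, and the fit without each culture in turn. A few items of the lists are not reported here.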

Additional observations from a re-analysis of the deposited data

Results flagged for a closer look

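Single cultures stood apart from the other cultures of their breed in 13 of 244 groups of 4 values examined (5.33%), where chance alone gives about 1 in 20. In each case the gap between the culture and its nearest neighbour took up more of the breed's range than Dixon's critical value for 4 samples allows. Holstein 1 was the low culture in 7 of them, with 10.1 CPM in PLXNB2, 3.49 CPM in LCN1, 2.38 CPM in MYH7, 2.17 CPM in FOXJ1, 2.12 CPM in APOH, 2.07 CPM in COL4A2 and 2.88 CPM in COL5A1. Its library had 19.98% of its reads on unplaced scaffolds and a TMM factor of 0.817, and their part in these values was not tested. Angus 1 stood apart in 3, low in PLD6 (7.71 CPM) and ARHGEF10 (6.004 CPM) and high in KCNJ14 (3.28 CPM). The inward rectifier potassium channels gave the other 3, all high: Holstein 3 in KCNJ9 (4.92 CPM), Holstein 4 in KCNJ14 (4.76 CPM) and Angus 4 in KCNJ11 (3.75 CPM).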

How the results depend on the processing

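The number of members depended on the library size and threshold. It was 1250 with library sizes over chromosomes 1 to 29, 2156 at 1 CPM, 181 at 4 CPM and 1628 with a median of at least 2 CPM. TMM library sizes gave 1063, of which 804 were members, and single-window genes raised the number to 1060. Leaving out each culture in turn gave 820 to 1009, the largest without Angus 3. Leaving out windows with stacked reads, chosen after seeing the data, gave 790.

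No member was called between the breeds under any of the 18 alternatives run, and leaving out each culture in turn gave 0 calls throughout. These included other normalizations and filters, FDR < 0.05 and no fold change minimum. Leaving out 1 culture moved the median log2 fold change between -0.11 and 0.01. The labels give the breeds the same animal numbers, 1 to 4, but do not say that these pair the animals. Same-numbered cultures had correlations of -0.157 to 0.139 with a mean of -0.0023, against a mean of 0.0028 for different numbers. These values only set the kinds of pair against each other and do not give the likeness of whole libraries. With the animal number as a replicate block 0 members were called and the median log2 fold change was -0.06. Fold changes of the 6 members without overlap kept their direction in all 16 alternatives each. These 6 were chosen because the breeds did not overlap, so leaving out 1 culture could not reverse their order in CPM. Their constant direction is therefore no separate support for a breed difference. The depth limits what can be said near 2 CPM.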
